A study of Mus musculus with 18 samples.

Results

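The proteasome is the barrel-shaped protease that degrades proteins tagged with ubiquitin. Its 20S core stacks outer alpha rings, which gate the entry, on inner beta rings, which hold the active sites. The 19S particle caps the core. Its base holds an ATPase ring that unfolds substrates and pulls them in, and its lid helps to bind substrates and strips ubiquitin from them. Tumour cells depend on this machinery to clear misfolded and regulatory proteins, and drugs used against myeloma block its active sites. The genes described here were found by name, as Psma, Psmb, Psmc or Psmd followed by a number, without the interferon-inducible Psmb8, Psmb9 and Psmb10. The rule took 36 of the 54532 genes in the table. They comprised 8 alpha ring genes, 8 beta ring genes, 6 ATPases of the 19S base, 3 other base subunits, 8 lid subunits and 3 factors that help to assemble the base (Psmd5, Psmd9 and Psmd10).

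RNA came from KPCA.B, a mouse cell line of high-grade serous ovarian cancer, in 18 libraries. The cells expressed a control short hairpin RNA (shControl, labelled as wild type for Ndufa5) or one of 2 hairpins against Ndufa5, an accessory subunit of respiratory complex I (shNdufa5_1 and shNdufa5_2, labelled as knockdown 1 and knockdown 2). Each of these was grown in medium conditioned by proliferating cells treated with the vehicle DMF (PCM) or by cells made senescent with cisplatin, a DNA-crosslinking drug (SCM), mixed in equal parts with fresh high-glucose DMEM that held serum, EGF and ITS-G. The 6 groups had 3 libraries each. All values come from 1 cell line. Nothing in the labels ties the replicates to cultures of their own, so the p-values rest on a spread between libraries that could be technical.

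Every library had at least 13.8 M fragments and at most 38.9 M. The deepest were replicate 2 of shControl with PCM (33.8 M) and with SCM (38.9 M), and no other library exceeded 20.8 M. The targeted gene, Ndufa5, stood at 15.2 to 22.1 FPKM (fragments per kilobase of transcript and M fragments) in shControl with PCM and at 20.9 to 26.2 FPKM with SCM. It was at 6.23 to 6.85 and at 6.23 to 6.78 FPKM with shNdufa5_1, below every control library. In the libraries labelled shNdufa5_2 it was at 16.8 to 18.7 FPKM with PCM, within the control range, and at 14.6 to 20.2 FPKM with SCM, below the shControl range (-0.43, limma adjusted p = 0.0125). The values of that hairpin in PCM are thus those of libraries whose target was not shown to be reduced. Of 10 epithelial and ovarian carcinoma markers 6 had a mean of at least 1 FPKM (Krt7, Krt8, Krt18, Krt19, Pax8 and Msln), whereas Wt1 and Muc16 were at 0 in all libraries and Epcam and Cdh1 had means below 1 FPKM. The summed level of these markers was 1048 to 1117 FPKM in shControl with PCM and 1618 to 1727 FPKM with SCM. Of 5 leukocyte markers only Cd68 reached a mean of 1 FPKM, and their sum was 2.01 to 2.20 FPKM in shControl with PCM and 5.92 to 6.96 FPKM with SCM. The sums for 5 fibroblast markers were 2.48 to 2.85 and 3.64 to 4.79 FPKM, and those for 4 endothelial markers 3.55 to 4.47 and 5.67 to 8.48 FPKM. Of the endothelial markers only Plvap reached a mean of 1 FPKM. Pecam1, Cdh5 and Kdr were at most 0.14 FPKM in every library, so the endothelial sums here and below follow Plvap. Of the fibroblast markers Col1a1 and Pdgfra alone reached a mean of 1 FPKM. With shNdufa5_1 the epithelial sum was 1694 to 1735 FPKM in PCM and 1996 to 2060 FPKM in SCM, the leukocyte sum at most 2.17 FPKM, the endothelial sum 2.20 to 2.70 and 4.38 to 5.78 FPKM and the fibroblast sum 1.65 to 2.53 and 2.97 to 3.51 FPKM. In the libraries labelled shNdufa5_2 the epithelial sum was 1197 to 1219 and 1198 to 1269 FPKM, the leukocyte sum 6.13 to 8.70 and 7.50 to 10.2 FPKM, the endothelial sum 6.87 to 7.36 and 8.01 to 10.5 FPKM and the fibroblast sum 3.26 to 3.53 and 4.11 to 5.36 FPKM. The part of these shifts in the results below was not tested, and fewer cells of a type and less RNA per cell cannot be told apart in bulk samples.

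Of the 36 genes 34 had a mean of at least 1 FPKM and were tested. Psma8, an alpha subunit of male germ cells, was listed at 0 in all 18 libraries. Psmb11, the beta subunit of the thymic cortex, was above 0 in 1 library only, at 0.025 FPKM. The 34 tested genes had at least 230 fragments in every library.

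Subunits that sit side by side in the same particle had very different FPKM values. These values divide by the length of all annotated exons of a gene, so the order between genes depends on that length. It is 899 bases for Psmb5 and 1951 for Psmb4, but 7265 for Psmd1, 7248 for Psmd9 and 7230 for Psmd5, and 1469 for Psmd10. Whether the transcripts present had these lengths was not tested. Psmb4, a beta subunit with no active site, had the highest mean over the 18 libraries at 231 FPKM, followed by the catalytic Psmb5 at 170 FPKM, the lid subunit Psmd8 at 168 FPKM and the alpha subunit Psma6 at 160 FPKM. The lowest were the assembly factors Psmd5 (15.8 FPKM), Psmd10 (13.98 FPKM) and Psmd9 (5.94 FPKM), chaperones that are not part of the finished protease. Among structural subunits the lowest was Psmd1, the large scaffold of the base, at 18.2 FPKM. The ranges of neighbours in this order overlapped: Psmb5 ran from 112 to 270 FPKM over the 18 libraries and Psmd8 from 135 to 244 FPKM. Psmb4, whose lowest library stood at 156 FPKM, overlapped with both.

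**Figure D1:**
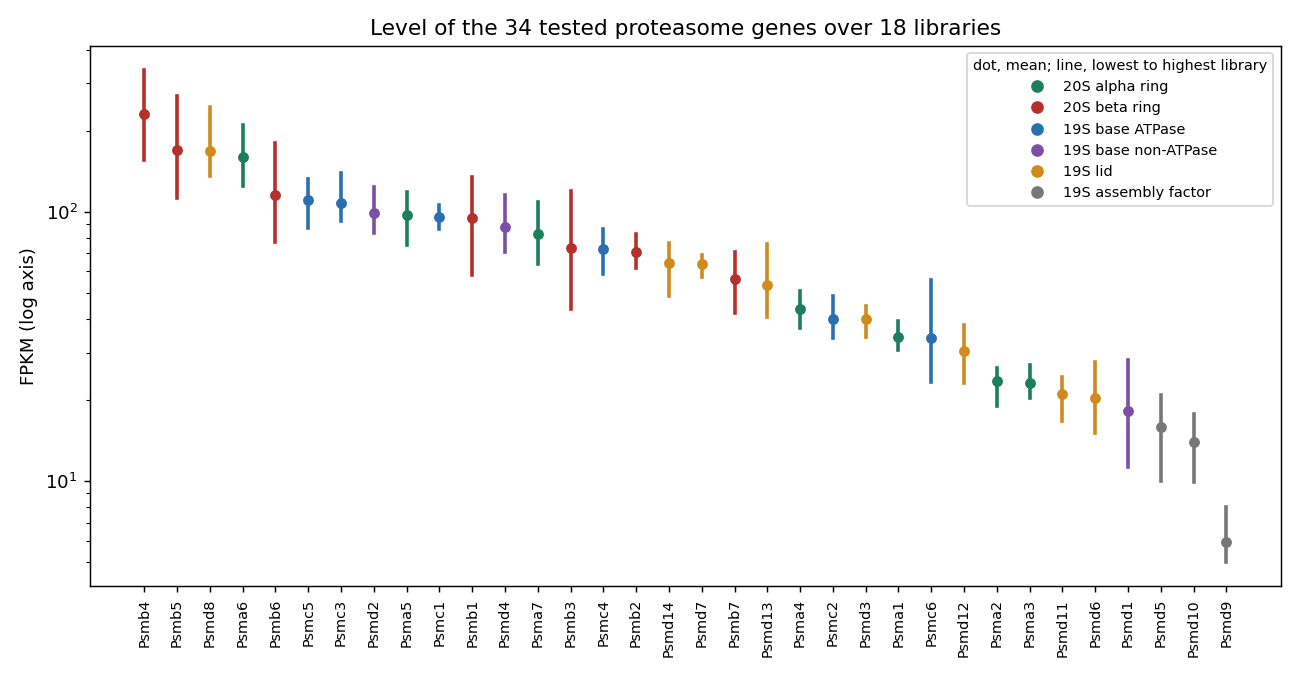
RNA level in FPKM (log axis) of the 34 tested proteasome genes, ordered by their mean over 18 libraries (dot) with the lowest and the highest library (line), coloured by role. Psmb4 leads with a mean of 231 FPKM and the 3 assembly factors, at 5.94 to 15.8 FPKM, are last. The order depends on the annotated exon length by which FPKM divides.

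The first comparison asks what medium from senescent cells did to these genes in cells with the control hairpin. The proteasome genes did not move as 1 block. The beta ring gained most, with the catalytic Psmb5 and Psmb6 among the largest rises, while Psmd14, Psmd12, Psmd1 and Psmc6 of the 19S particle fell. With limma on log2(FPKM + 1) and an adjusted p under 0.05 over all 11084 tested genes, 18 of the 34 rose, 8 fell and 8 did not pass, beside 61.9% of all tested genes called in either direction. The genes called higher made up 31.7% of all tested and those called lower 30.2%. The median log2 difference of the 34 was 0.17, against 0.00 over all tested genes.

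The deposited values leave the median gene at about the same level in all groups, and the split of 18 higher and 8 lower depends on that choice. It became 2 higher and 22 lower when libraries were scaled to the same FPKM sum, which itself moved the median of all tested genes by -0.50. It was 12 higher and 16 lower when they were scaled by total fragments (median of all genes -0.20), and 10 higher and 16 lower after quantile normalization. Of the 18 genes that rose, 6 kept a positive sign under all 4 scalings: Psmb3, Psmb5, Psmb6, Psmd4, Psmd8 and Psmd13. All 8 that fell kept a negative sign: Psmc1, Psmc6, Psmd1, Psmd5, Psmd6, Psmd10, Psmd12 and Psmd14. Scaling by FPKM sums and by total fragments moved the differences of this comparison down, so a negative sign could not turn under them. Quantile normalization (median of all genes -0.02) could have turned it. The counts of kept signs therefore do not compare the falls with the rises. In what follows, "rose" and "fell" are relative to the median gene.

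The active sites of the 20S core lie in 3 beta subunits. Psmb5, which cuts after hydrophobic residues and is the main target of bortezomib, stood at 144, 147 and 149 FPKM in shControl with PCM and at 248, 260 and 270 FPKM with SCM. The groups were far apart, and the log2 difference was 0.82 ± 0.06 (SE, n = 3 each, limma adjusted p = 1.28e-08). Psmb6, which cuts after acidic residues, stood at 90.6, 96.3 and 97.2 FPKM with PCM and at 161, 173 and 180 FPKM with SCM. Its 3 SCM libraries lay above its 3 PCM libraries, with a log2 difference of 0.85 ± 0.05 (SE, limma adjusted p = 5.13e-10). Psmb7, which cuts after basic residues, stood at 52.6, 53.1 and 53.2 FPKM with PCM and at 68.2, 69.98 and 71.0 FPKM with SCM. Here too the groups did not overlap, but the log2 difference of 0.39 ± 0.06 (SE, limma adjusted p = 2.95e-05) turned to -0.21 under scaling to the same FPKM sum. Reads from the antisense gene Nek6, whose exons overlap those of Psmb7 by 405 bases, cannot be told apart from Psmb7 without strand information, and Psmb5 has a near-identical copy, Gm3375, at a mean of 9.13 FPKM.

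The promoters of the 2 genes with the largest rises, Psmb6 and Psmb5, and of the gene with the largest fall, Psmd14, are shown because these members moved apart under SCM. Each is the 250 bases before the RefSeq start in GRCm38.p6, written 5′ to 3′ on the strand of the gene, at chr11:70525107-70525356 (plus strand) for Psmb6, chr14:54617996-54618245 (minus strand) for Psmb5 and chr2:61711444-61711693 (plus strand) for Psmd14. Capitals mark matches to the motifs searched.
Psmb6: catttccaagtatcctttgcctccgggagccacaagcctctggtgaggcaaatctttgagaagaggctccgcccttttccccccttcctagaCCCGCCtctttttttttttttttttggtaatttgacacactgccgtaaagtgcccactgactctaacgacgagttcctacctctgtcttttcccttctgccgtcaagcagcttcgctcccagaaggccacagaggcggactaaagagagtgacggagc
Psmb5: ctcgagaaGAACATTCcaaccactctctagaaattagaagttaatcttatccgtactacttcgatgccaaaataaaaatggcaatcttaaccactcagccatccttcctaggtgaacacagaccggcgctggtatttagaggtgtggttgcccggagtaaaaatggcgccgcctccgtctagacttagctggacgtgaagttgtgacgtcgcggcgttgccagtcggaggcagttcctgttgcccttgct
Psmd14: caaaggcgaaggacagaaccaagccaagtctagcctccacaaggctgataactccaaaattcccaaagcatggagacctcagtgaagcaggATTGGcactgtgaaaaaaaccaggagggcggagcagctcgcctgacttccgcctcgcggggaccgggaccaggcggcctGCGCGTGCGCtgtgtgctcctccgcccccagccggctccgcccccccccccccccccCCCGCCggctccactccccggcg
The search covered 6 motifs on both strands. The GC box was searched as GGCGGG. The core of ETS factor sites was searched as CCGGAAG. The heat shock element was searched as GAANNTTC and the antioxidant response element as TGANTCAGC. The CCAAT box was searched by the letters of its name, and the nuclear respiratory factor 1 motif is given by name alone. A match that reads the same on both strands was counted once, and matches of different motifs were counted separately even where they overlap. Psmb6 matched the GC box once, Psmb5 the heat shock element once, and Psmd14 the CCAAT box, the nuclear respiratory factor 1 motif and the GC box once each. Of the 36 genes 29 had a promoter in the table. The GC box was in 22 of those 29 (75.9%), against 32.5% of all 32851 promoters, and both directions were represented: 9 of the 13 risers with a promoter and 7 of the 8 fallers held it. The ETS core was in 9 of the 29 (31.0%, against 6.91% of all) and the nuclear respiratory factor 1 motif in 6 (20.7%, against 3.74%). CCAAT was in 12 (41.4%, against 33.8%), the heat shock element in 1 (3.45%, against 6.69%) and the antioxidant response element in none of the 29 (1.02% of all). The 29 were counted by gene, with a match in any promoter of the gene, but the 32851 by promoter. The latter include genes that were not tested here, so the shares are in unlike units, and their difference was not tested.

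In the rest of the beta ring, the structural subunits Psmb3, Psmb4 and Psmb1 rose by 0.74 ± 0.06, 0.54 ± 0.04 and 0.52 ± 0.06 on the log2 scale (SE), and Psmb2 did not pass (-0.07). The ring thus had 6 of 7 tested genes higher, with a median of 0.54. The summed level of its genes was 725 to 745 FPKM in shControl with PCM and 1082 to 1173 FPKM with SCM. The FPKM sum of the whole library rose as well, from 290242 to 303782 to 437859 to 484521. The signs of Psmb1 and Psmb4 turned under scaling to the same FPKM sum, and that of Psmb4 also under quantile normalization. Psmb3 has near-identical copies, among them AC114990.1 and Gm4950 at means of 8.751 and 6.735 FPKM.

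The alpha ring, which opens and closes the channel, rose less. Of its 7 tested genes 4 rose, 3 did not pass (Psma1, Psma3 and Psma4) and the median was 0.26. Psma5 was the leading riser, at 75.1, 84.6 and 85.8 FPKM with PCM and 107, 113 and 118 FPKM with SCM. Its groups did not overlap, and the log2 difference was 0.46 ± 0.05 (SE, limma adjusted p = 1.03e-06). Psma2 had the smallest rise that passed, 0.26 ± 0.05, and Psma7 and Psma6 lay between at 0.45 and 0.30. All 4 signs turned under scaling to the same FPKM sum. Psma3 shares 685 identical bases with Gm13835, which at a mean of 60.2 FPKM is above Psma3 itself, so its level is uncertain. Psma5 has 2 near-identical copies, Gm12989 and Gm8394, at 13.7 and 9.71 FPKM.

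The 19S particle split. Among the ATPases, 1 of 6 rose and 2 fell, with a median of 0.01. Psmc3, which rose by 0.42 ± 0.04 (SE), turned sign under scaling to the same FPKM sum and shares 215 exon bases with the antisense gene Slc39a13. Psmc6 stood at 32.7, 33.6 and 34.5 FPKM with PCM and at 23.4, 23.5 and 26.1 FPKM with SCM. Its groups did not overlap, and the log2 difference was -0.45 ± 0.06 (SE, limma adjusted p = 9.86e-06). Psmc1 fell by 0.18, the smallest change that passed in the ring, and Psmc2, Psmc4 and Psmc5 did not pass.

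The 3 other base subunits went 3 ways. Psmd4, a receptor that holds ubiquitin chains, stood at 71.0, 72.4 and 75.9 FPKM with PCM and at 109, 114 and 116 FPKM with SCM, without overlap and with a log2 difference of 0.62 ± 0.04 (SE, limma adjusted p = 4.14e-09). Psmd1 stood at 15.1, 16.2 and 17.4 FPKM with PCM and at 11.3, 11.9 and 11.9 FPKM with SCM. It was lower in all 3 SCM libraries, with a log2 difference of -0.44 ± 0.06 (SE, limma adjusted p = 6.12e-06). Psmd2, the other large scaffold, had a difference of 0.03 that did not pass.

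In the lid 5 of 8 genes rose and 3 fell, and none missed the threshold. Psmd8, a scaffold subunit, stood at 143, 143 and 146 FPKM with PCM and at 237, 243 and 244 FPKM with SCM. The groups lay far apart, and the log2 difference of 0.74 ± 0.03 (SE) had the smallest adjusted p of all 34 genes (4.27e-12, limma). Psmd13 rose by 0.65 ± 0.04, although 342 of its exon bases overlap those of the antisense gene Sirt3, at 5.98 FPKM. Psmd3 and Psmd7 rose by 0.19 each and Psmd11 by 0.16, and these 3 were not stable: Psmd3, Psmd7 and Psmd11 turned sign under scaling by FPKM sums and by total fragments, and Psmd7 under quantile normalization. Psmd11 also lost its call when any 1 of 3 libraries was left out, shControl with PCM replicate 2 or 3 (adjusted p = 0.108 and 0.0503, limma) or shControl with SCM replicate 3 (adjusted p = 0.0925, limma), although the difference stayed at 0.13 to 0.16.

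The lid's enzyme went the other way. Psmd14, the metalloprotease that cuts ubiquitin chains off substrates, stood at 72.7, 73.7 and 74.9 FPKM with PCM and at 48.7, 52.4 and 52.6 FPKM with SCM. All 3 SCM libraries were lower, and the log2 difference was -0.52 ± 0.05 (SE, limma adjusted p = 1.55e-07). The scaffold subunit Psmd12 stood at 30.9, 31.5 and 35.2 FPKM with PCM and at 23.0, 23.8 and 25.2 FPKM with SCM, a fall of 0.42 without overlap, and Psmd6 fell by 0.30. Of the assembly factors, Psmd5 fell by 0.42 and Psmd10 by 0.26, while Psmd9 rose by 0.28. Psmd10 lost its call without shControl with PCM replicate 3 (adjusted p = 0.0801, limma), without shControl with SCM replicate 1 (adjusted p = 0.0785, limma) or without shControl with SCM replicate 3 (adjusted p = 0.0724, limma), at differences of -0.22 to -0.23. The sign of Psmd9 turned under scaling by FPKM sums.

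**Figure D2:**
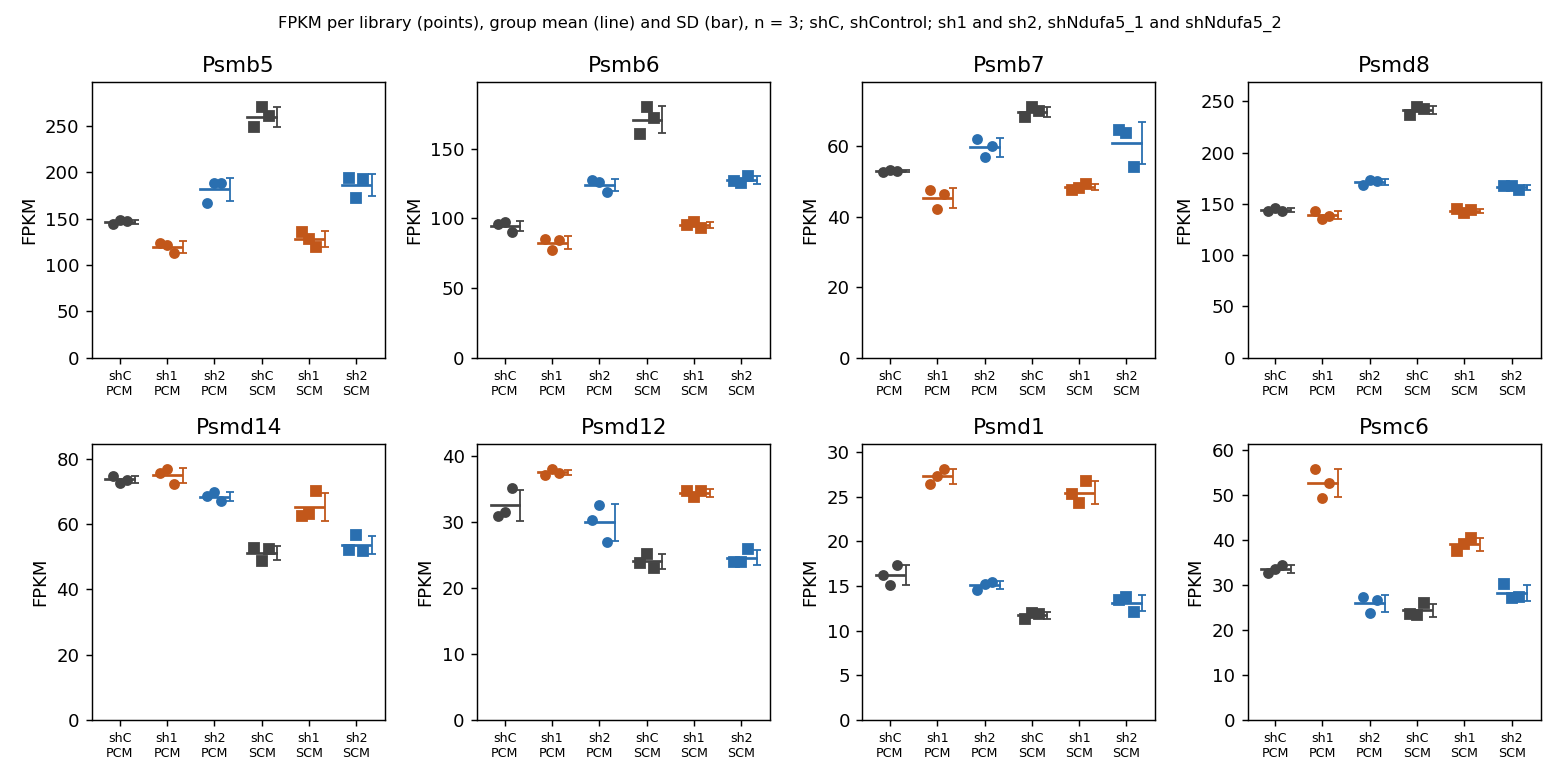
FPKM of 8 proteasome genes in each of the 18 libraries (points; circles PCM, squares SCM), with the mean (line) and SD (bar) of each group of 3; shC is shControl, sh1 and sh2 are the libraries labelled shNdufa5_1 and shNdufa5_2. In shControl the 3 SCM libraries lie above the 3 PCM libraries for Psmb5, Psmb6, Psmb7 and Psmd8 and below them for Psmd14, Psmd12, Psmd1 and Psmc6; the direction for Psmb7 turned under scaling to the same FPKM sum.

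Base composition moved with this comparison. Over the 11074 tested genes with a transcript sequence, the log2 difference of SCM against PCM in shControl had a Spearman rho of 0.53 with the GC content of the longest transcript and of -0.32 with exon length. Over the 34 proteasome genes rho was 0.55 and -0.22. These are descriptions over genes that share the same libraries. Psmc6, at 37.0% GC, and Psmd14, at 43.2%, fell, and Psmb5, at 56.6%, rose, but Psmb7, at 40.8%, rose as well. Once each library's trend with GC content and length was removed, 20 of the 34 genes were higher and 9 lower. Of all 11084 tested genes 2863 were then higher and 2724 lower. Psmb6 then stood at 0.61, Psmb7 at 0.65, Psmb5 at 0.34, Psmd14 at -0.36 and Psmd1 at -0.27, all called, while Psmc6, at -0.11, was not.

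**Figure D3:**
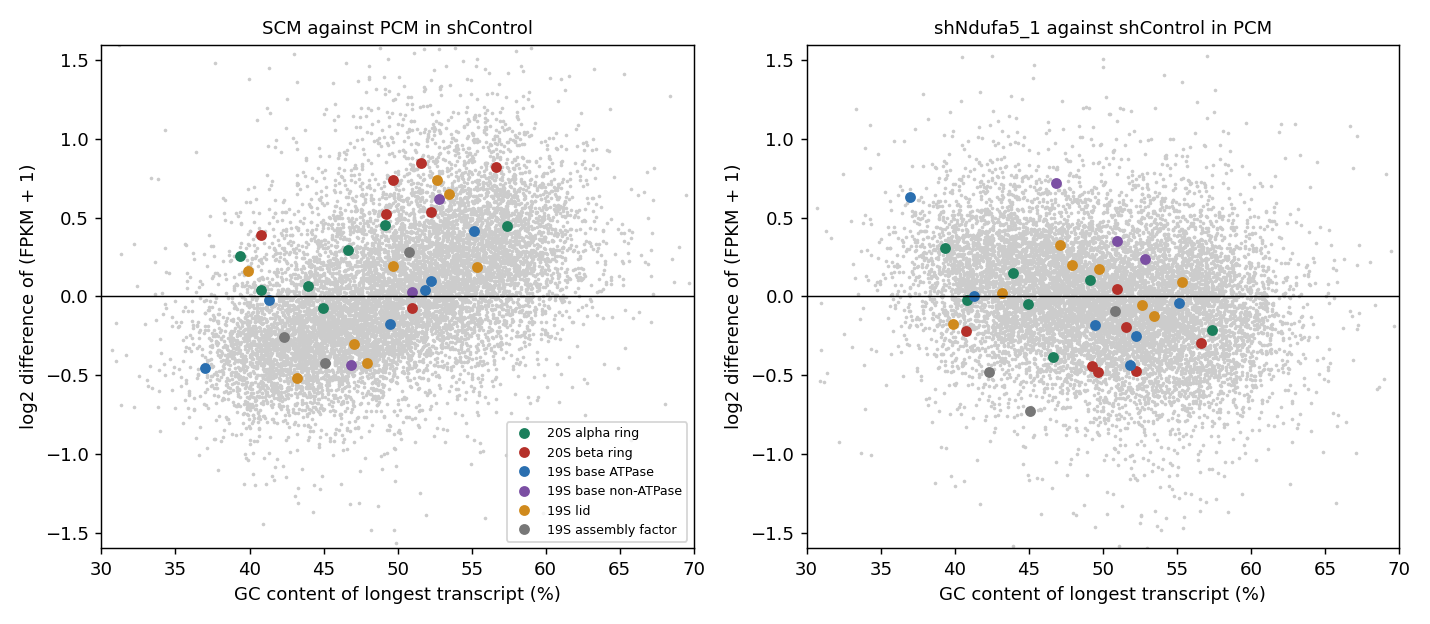
Log2 difference of (FPKM + 1) against the GC content of the longest transcript (%), for all tested genes (grey) and the proteasome genes (coloured by role), for SCM against PCM in shControl (left) and shNdufa5_1 against shControl in PCM (right). On the left the cloud slopes upward (rho 0.53) and the proteasome genes follow it (rho 0.55); on the right both slope downward weakly (rho -0.23 and -0.18). The vertical position of zero depends on the scaling between libraries.

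On the deposited scale the same change of medium gave fewer calls among these genes with either Ndufa5 hairpin. There were 13 with shNdufa5_1 and 12 with shNdufa5_2, against 26 in shControl. Calls over all tested genes dropped as well, from 61.9% to 42.3% and 22.8%. Falls alone were not fewer in the libraries labelled shNdufa5_2, at 12 against 8 in shControl. With shNdufa5_1, 9 of the 34 rose, 4 fell and 21 did not pass, beside 42.3% of all tested genes called (22.5% higher, 19.8% lower), and the median was 0.05. The split was 0 higher and 4 lower under scaling by FPKM sums, 6 and 5 under total fragments, 5 and 8 after quantile normalization and 8 and 6 without the GC and length trend. Over all 11084 tested genes it was 1212 and 1949, 1994 and 2691, 2247 and 2381, and 1659 and 1595. The largest rise was that of Psmb1, from 58.4, 65.5 and 70.1 FPKM with PCM to 75.7, 75.9 and 79.3 FPKM with SCM (0.25 ± 0.06, SE, limma adjusted p = 0.00251). Psmb6 rose by 0.20 ± 0.05 and Psmb5 had a difference of 0.10 that did not pass (adjusted p = 0.196, limma). The largest fall was again that of Psmc6, from 49.4, 52.8 and 55.7 FPKM to 37.5, 39.1 and 40.4 FPKM, without overlap (-0.42 ± 0.06, SE, limma adjusted p = 5.8e-05). Psmd6 fell by 0.27, Psmc2 by 0.20 and Psmd14 by 0.20. Without the GC and length trend Psmc2 turned to 0.03 and Psmd14 shrank to -0.04 (adjusted p = 0.508, limma), and Psmb6, at 0.09, was no longer called.

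In the libraries labelled shNdufa5_2, none of the 34 rose with SCM and 12 fell, beside 22.8% of all tested genes called, 11.7% higher and 11.1% lower. The beta ring had 0 of 7 genes called by limma. Psmb5 ran from 167 to 189 FPKM with PCM and from 173 to 194 FPKM with SCM, overlapping, at a log2 difference of 0.04 with a 95% interval of -0.09 to 0.17. The 12 that fell comprised 5 of 6 ATPases (Psmc1 to Psmc5), Psmd1 and Psmd2, the lid subunits Psmd6, Psmd7, Psmd12 and Psmd14, and Psma4 of the core. All 12 kept a negative sign under the 4 scalings. The largest of these falls was that of Psmd14, from 67.2, 68.5 and 69.8 FPKM to 51.9, 52.2 and 56.7 FPKM (-0.35 ± 0.05, SE, limma adjusted p = 0.000105). Psmc6 had a positive difference, 0.12, that did not pass. Psmd14 and Psmd6 were the genes called lower in all 3 genotypes. The call of Psmd14 in shNdufa5_1 was lost without the GC and length trend, and that of Psmd6 in shNdufa5_2 was lost in 7 of 30 alternatives (adjusted p up to 0.206, limma).

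**Figure D4:**
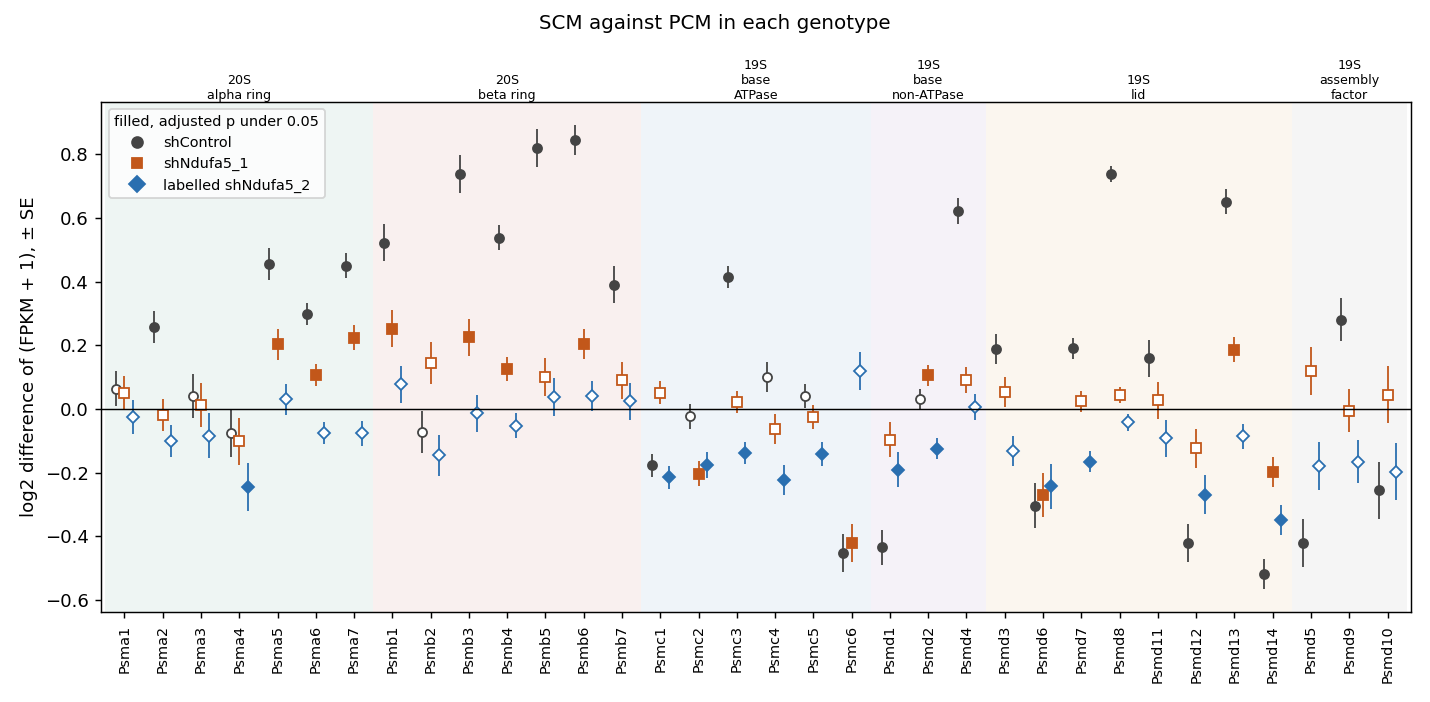
Log2 difference of (FPKM + 1) for SCM against PCM, with SE, for the 34 tested genes by role in shControl (circles), shNdufa5_1 (squares) and the libraries labelled shNdufa5_2 (diamonds); filled symbols have an adjusted p under 0.05. In shControl 18 genes lie above 0 and 8 below with an adjusted p under 0.05; the counts are 9 and 4 for shNdufa5_1 and 0 and 12 for shNdufa5_2, all on the deposited scale, and under scaling to the same FPKM sum they are 2 and 22, 0 and 4, and 0 and 1. All 11084 tested genes give 488 and 7805, 1212 and 1949, and 694 and 231 under that scaling.

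Whether the response to SCM itself differed was tested as an interaction, the response averaged over both hairpins minus that of shControl. For 21 of the 34 genes the averaged response lay below that of shControl and for 5 above, beside 38.6% of all tested genes called (17.2% above, 21.5% below). The median was -0.24. The split was 23 above and 0 below under scaling by FPKM sums, 10 and 9 under total fragments and 9 and 9 after quantile normalization. All 11084 tested genes gave 7950 above and 108 below, 4077 and 1203, and 2019 and 1444. The 5 genes Psmb3, Psmb5, Psmb6, Psmd8 and Psmd13 stayed negative under all 4 scalings, and Psmc6, Psmd1, Psmd5, Psmd12 and Psmd14 stayed positive. Scaling by FPKM sums and by total fragments put the median of all tested genes at 0.50 and 0.16 for this interaction. The positive signs could thus not turn under them. Without the GC and length trend Psmc6 (0.06), Psmd1 (0.17) and Psmd5 (0.25) lost their calls. For Psmb5 the difference was -0.75 ± 0.07 (SE, limma adjusted p = 1.39e-06), for Psmd8 -0.74 ± 0.03 (adjusted p = 7.84e-10) and for Psmb6 -0.72 ± 0.06 (adjusted p = 1.6e-07). Taken singly, the response of shNdufa5_1 was called different from that of shControl for 22 of the 34 (5 above, 17 below, beside 26.2% of all tested genes, 10.7% above and 15.5% below). That of shNdufa5_2 was called different for 24 (2 above, 22 below, beside 43.0%, 18.9% above and 24.1% below). For shNdufa5_1 the split was 22 above and 0 below by FPKM sums, 8 and 8 by total fragments, 9 and 7 by quantile normalization and 7 and 14 without the GC and length trend, and for shNdufa5_2 it was 21 and 0, 6 and 15, and 8 and 10 under the first 3. The same splits over all tested genes were 6988 and 85, 3316 and 772, 1424 and 988, and 1154 and 1557 for shNdufa5_1. For shNdufa5_2 they were 7337 and 93, 3553 and 1414, and 2246 and 1729. All of these contrasts share the shControl libraries.

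The next comparison asks what each hairpin did in PCM. With shNdufa5_1, the 3 base subunits outside the ATPase ring rose, while 6 of 7 beta ring genes and 2 of 3 assembly factors fell. In all, 9 of the 34 were higher and 15 lower, beside 52.7% of all tested genes called (25.6% higher, 27.1% lower), with a median of -0.05. All 24 kept their sign under the 4 scalings. The split was 3 higher and 15 lower by FPKM sums and 14 and 12 without the GC and length trend, beside 1403 and 3673, and 2812 and 2899 of all 11084 tested genes.

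Psmd1 had the largest rise, from 15.1, 16.2 and 17.4 FPKM in shControl to 26.5, 27.4 and 28.1 FPKM with shNdufa5_1. The groups were far apart (0.72 ± 0.06, SE, limma adjusted p = 3.94e-08). Psmc6 followed, from 32.7, 33.6 and 34.5 FPKM to 49.4, 52.8 and 55.7 FPKM (0.63 ± 0.06, SE, limma adjusted p = 4.17e-07). All 3 base subunits outside the ATPase ring rose: Psmd2 by 0.35 and Psmd4 by 0.24 beside Psmd1. Psmd6 led the lid with 0.33, and Psma2, the leading alpha subunit among those higher, rose by 0.31.

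On the other side, the assembly factor Psmd5, which holds back the base until its ATPases are in place, stood at 19.6, 20.4 and 20.8 FPKM in shControl and at 9.999, 12.7 and 12.9 FPKM with shNdufa5_1. It had the largest fall, -0.73 ± 0.07 (SE, limma adjusted p = 8.96e-07). Psmd10, another such factor, fell by 0.48, and Psmd9 (-0.09) did not pass. In the beta ring 6 of 7 fell, with a median of -0.30: Psmb3 by 0.48, Psmb4 by 0.47, Psmb1 by 0.44, Psmb5 by 0.30, Psmb7 by 0.22 and Psmb6 by 0.20, while Psmb2 (0.05) did not pass. Of the ATPases Psmc5 fell most, by 0.43. Psma6 fell by 0.39, to 124, 125 and 125 FPKM from 159, 159 and 172 FPKM. In the lid Psmd11 and Psmd13 fell by 0.18 and 0.12, and Psmd14 did not pass (0.02). Without the GC and length trend Psmb6 (-0.07) and Psmd13 (-0.02) lost their calls.

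In the libraries labelled shNdufa5_2, 17 of the 34 were higher with PCM and 1 was lower, beside 35.6% of all tested genes called (19.3% higher, 16.3% lower), with a median of 0.11. This direction rests on the scaling: the split was 0 higher and 20 lower by FPKM sums, 10 and 6 by total fragments and 4 and 7 after quantile normalization. All 11084 tested genes split into 139 and 6315, 1325 and 2917, and 1649 and 1940. Psmb6 alone among the 17 kept a positive sign in all 4. It stood at 90.6, 96.3 and 97.2 FPKM in shControl and at 119, 126 and 127 FPKM with the hairpin, without overlap (0.39 ± 0.05, SE, limma adjusted p = 1.55e-05). Psmb5 was higher by 0.30, Psma5 by 0.28, Psmd8 by 0.25, Psmb7 by 0.17 and Psmd4 by 0.14, and all 5 turned sign by FPKM sums. The gene that fell was Psmc6, from 32.7, 33.6 and 34.5 FPKM to 23.8, 26.7 and 27.2 FPKM (-0.37 ± 0.06, SE, limma adjusted p = 0.000245). It kept its sign in all 4 scalings but lost its call without the GC and length trend (-0.14, adjusted p = 0.0742, limma), as did Psmb5 (0.08) and Psmd4 (0.05). Scaling by FPKM sums and by total fragments moved this comparison down, so the sign of Psmc6 could not turn under them.

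In SCM the summed beta ring level of both hairpins lay below that of shControl on the deposited scale, but single core genes differed: Psmb2 and Psma1 were higher with shNdufa5_1, by 0.26 and 0.13. Psmb2 kept its call in all 30 alternatives, whereas Psma1 lost it in 13 of 30 (adjusted p up to 0.194, limma). With shNdufa5_1, 8 of the 34 were higher and 19 lower than shControl, beside 59.8% of all tested genes called (28.7% higher, 31.1% lower), with a median of -0.19. Psmb5 stood at 248, 260 and 270 FPKM in shControl and at 120, 128 and 136 FPKM with shNdufa5_1, without overlap (-1.02 ± 0.06, SE, limma adjusted p = 9.98e-10). Psmb3 differed by -0.99, Psmb6 by -0.84, Psmd8 by -0.75 and Psmd13 by -0.59. Psmd1 stood at 11.3, 11.9 and 11.9 FPKM in shControl and at 24.3, 25.3 and 26.8 FPKM with shNdufa5_1, the widest gap upward (1.06 ± 0.06, SE, limma adjusted p = 2.81e-10), and Psmc6 was higher by 0.66. These 7 signs held under the 4 scalings, but the split did not: it was 16 higher and 6 lower by FPKM sums, 12 and 15 by total fragments and 13 and 15 after quantile normalization. Among all 11084 tested genes it was 6352 and 998, 4839 and 2216, and 3341 and 2989. Scaling by FPKM sums and by total fragments moved this comparison up, so the positive signs of Psmd1 and Psmc6 could not turn under them.

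In the libraries labelled shNdufa5_2, 2 of the 34 were higher (Psmc6 by 0.20 and Psmd1 by 0.15) and 19 lower than shControl in SCM, beside 33.9% of all tested genes called (13.9% higher), with a median of -0.18. The beta ring had 6 of 7 lower and a median of -0.33. Psmd8 differed by -0.54, Psmd13 by -0.51, Psmb3 by -0.49, Psmb5 by -0.48 and Psmb6 by -0.42, and these signs held under the 4 scalings. The split was 9 higher and 2 lower by FPKM sums, 5 and 12 by total fragments, 5 and 9 after quantile normalization and 0 and 17 without the GC and length trend. Among all 11084 tested genes it was 4753 and 184, 2704 and 1265, 1750 and 1273, and 1158 and 1531. Psmd1 kept its call in only 10 of 30 alternatives (adjusted p up to 0.306, limma). Psmc6 lost its call in 6 of 30, among them the removal of the GC and length trend (0.07). Within a medium both hairpins are compared with the same shControl libraries.

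**Figure D5:**
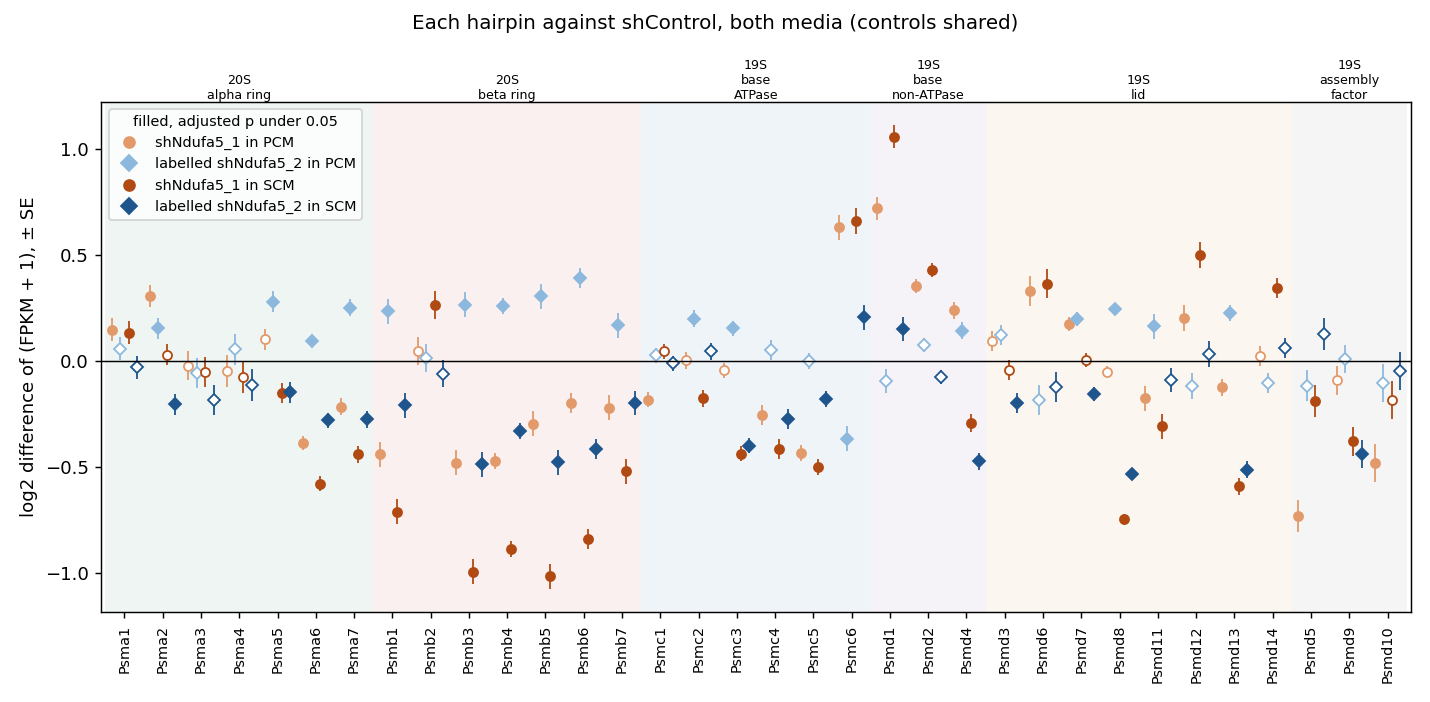
Log2 difference of (FPKM + 1) for each hairpin against shControl, with SE, in PCM (light) and SCM (dark), for the 34 tested genes by role; circles are shNdufa5_1, diamonds the libraries labelled shNdufa5_2, filled symbols have an adjusted p under 0.05. Psmd1 and Psmc6 lie above 0 with shNdufa5_1 in both media (0.72 and 0.63 in PCM, 1.06 and 0.66 in SCM) and most of the beta ring lies below; the diamonds in PCM lie mostly above 0 on the deposited scale, and 17 higher and 1 lower become 0 and 20 under scaling to the same FPKM sum. Of all 11084 tested genes 139 are then higher and 6315 lower.

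The hairpins also differed from each other. In PCM 7 of the 34 were higher and 19 lower with shNdufa5_1 than in the libraries labelled shNdufa5_2, beside 62.9% of all tested genes called (29.9% higher, 33.0% lower). Psmc6 (1.00) and Psmd1 (0.81) were at the upper end and Psmb3 (-0.75) and Psmb4 (-0.73) at the lower end. In SCM 12 were higher and 14 lower, beside 53.9% (26.5% higher, 27.3% lower), with Psmd1 (0.91) and Psmd2 (0.51) at the upper end and Psmb4 (-0.55) and Psmb5 (-0.54) at the lower end. The split in PCM was 12 higher and 9 lower by FPKM sums and 12 and 14 after quantile normalization, and that in SCM 14 and 5, and 15 and 11. All 11084 tested genes gave 4618 and 1797, and 3435 and 3442 in PCM, and 3484 and 1652, and 3026 and 2859 in SCM. This pair of comparisons was added after the data had been seen.

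Summed over the ring, the beta genes stood at 567 to 610 FPKM with shNdufa5_1 in PCM and 652 to 660 FPKM in SCM, against 874 to 894 and 873 to 892 FPKM in the libraries labelled shNdufa5_2. On the deposited scale the shControl ranges, 725 to 745 and 1082 to 1173 FPKM, were the widest apart between the media among the 3 genotypes. The FPKM sum of the whole library rose in shControl too, from 290242 to 303782 with PCM to 437859 to 484521 with SCM. It was 298724 to 368937 and 318823 to 348404 with shNdufa5_1, and 369807 to 389116 and 358839 to 378422 with shNdufa5_2. The ring's share of these sums was not tested. The base subunits outside the ATPase ring had another order. Their sum was 173 to 183 FPKM in shControl with PCM, 223 to 230 with shNdufa5_1 and 188 to 192 with shNdufa5_2, and in SCM 212 to 220, 238 to 242 and 179 to 181 FPKM.

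The members ranged from close followers of the rest, through genes near 0 such as Psma2 (r = 0.078) and Psmc1 (0.109), to genes that ran against it. Over the 18 libraries, log2(FPKM + 1) of Psmc3 had a Pearson r of 0.955 with the mean of the other tested members, Psmd13 0.89, Psma7 and Psmd8 0.87 each, and Psmb3 0.84. At the other end were Psmc6 (-0.79), Psmd1 (-0.76), Psmd12 (-0.64), Psmd14 (-0.57), Psmd6 (-0.55) and Psmd2 (-0.51). The 18 points share 6 groups, so these values are a description and carry no test. By the rule for likeness, the genes outside the list whose levels were closest to the members' mean were Odc1 (r = 0.94), S100a10 (0.93), Mtch2 (0.92), Poldip2 (0.91) and Bax (0.91).

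Partner genes of the proteasome were taken from a list of 47 symbols, of which 42 were in the table and 41 were tested. They were not examined under the other scalings, so their directions here and below hold on the deposited scale only. In shControl the members Psma5, Psmb7 and Psmc3, with rises like several below, turned sign under scaling to the same FPKM sum. In shControl 18 of the 41 rose with SCM, 14 fell and 9 did not pass, beside 31.7% of all tested genes called higher and 30.2% lower, with a median of 0.10. The 2 remaining 19S subunits, Adrm1 and Sem1, rose by 0.37 and 0.35. Of the 5 factors that help to build the core, Psmg1 (0.33), Psmg3 (0.31) and Pomp (0.25) rose, and Psmg2 and Psmg4 did not pass. The immunoproteasome subunits Psmb8 and Psmb10, which replace catalytic beta subunits in inflamed cells, rose by 1.05 and 0.87, from 2.77 to 4.00 and 6.73 to 8.79 FPKM to 7.32 to 8.59 and 13.3 to 18.1 FPKM. Their levels stayed below those of Psmb5 and Psmb7, which they replace.

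The caps that compete with the 19S particle moved in opposite directions. Psme1, of the interferon-inducible activator, rose by 0.78, whereas Psme2, the other subunit of that activator, did not pass (0.10). Psmf1, a core-binding regulator first known as an inhibitor, rose by 0.62. Psme3, the nuclear activator, fell by 0.73, from 62.5, 66.1 and 68.0 FPKM to 38.6, 38.9 and 40.02 FPKM, and Psme4, a large nuclear cap, fell by 0.70. Nfe2l1, the transcription factor that restores proteasome genes when the protease is blocked, rose by 0.39, while Ngly1, which helps to activate it, fell by 0.60. Ngly1 was near the filter of 1 FPKM, with means of 1.645 FPKM in PCM and 0.752 FPKM in SCM. Among 13 partner proteins 7 fell, with Txnl1 (-0.55), Ecpas (-0.45) and Usp14 (-0.32) in the lead, and 2 rose, beside the same 30.2% lower and 31.7% higher over all tested genes. Of the enzymes that activate ubiquitin, Uba1 rose by 0.48 and Uba6 fell by 0.57.

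With shNdufa5_1 in PCM the core assembly factors fell with the beta ring: 4 of the 5 were lower, Psmg2 by 0.71, Psmg4 by 0.44, Psmg3 by 0.38 and Psmg1 by 0.29, while Pomp did not pass (-0.07). Over all tested genes 27.1% were called lower in this comparison. Zfand2a, a stress-induced partner of the proteasome, fell by 0.94, from 114, 116 and 120 FPKM to 58.1, 60.1 and 62.5 FPKM. Uchl5, a deubiquitinase that binds the 19S base, was higher by 0.83, at 13.1, 16.7 and 18.5 FPKM against 8.30, 8.33 and 9.01 FPKM. In the libraries labelled shNdufa5_2 none of the 5 core assembly factors was called in PCM by limma.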

How the data were processed

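PolyA RNA sequencing of 18 libraries was deposited as one table of FPKM values per gene, which the authors made with STAR 2.6.1 and the mouse build GRCm38 (mm10), per the submitters' processing notes; DESeq2 is also named there, but its role, the gene annotation, and any use of strand in counting are not stated in what was available here. The FPKM values fell on whole fragments (within 0.1 fragment) for 99.54 to 99.82% of low values of single-transcript genes, which gave a depth of 13.8 to 38.9 M fragments per library.

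From these values log2(FPKM + 1) was tested with limma 3.58.1 (R 4.3.3), with a variance trend and 1 coefficient for each of 6 groups of 3 libraries, over 11084 genes with a mean of at least 1 FPKM. Fold changes on this scale understate those of low genes. P-values were adjusted over all tested genes by the Benjamini-Hochberg method and called under 0.05. Gene positions, GC content and length came from GENCODE M21, near-identical copies (at least 95% identity over 150 bases) from BLAST 2.17.0, and promoters from RefSeq. The fit was tested on simulated data with 200 of 11084 genes changed in shControl with SCM. It recovered 26.5% of them at a log2 change of 0.25, 76.5% at 0.5 and 93% at 1. False calls numbered 2, 6 and 8. A gene that did not pass may thus have changed by a small amount. Recovery with as many genes changed as were called here was not tested.

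Members and gene lists were chosen with earlier results of these data known. In each role the called members with the largest and smallest difference for SCM against PCM in shControl and the largest for each hairpin in PCM were named, with those called against the majority of their role, the catalytic subunits, Psmd4, Psmd14, Psma8 and Psmb11; other members named were chosen after their values were seen. The alternatives were other pseudocounts, filters and scalings, removal of the GC and length trend, a replicate block, fits of only the groups compared and leaving out each library.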

Additional observations from a re-analysis of the deposited data

Results flagged for a closer look

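The response to SCM, averaged over both hairpins, differed from that of shControl by the interaction test for 15 of the members named. Differences are on the log2 scale, at a limma adjusted p under 0.05 over all tested genes. Of all 34 tested members 26 were called, beside 38.6% of all tested genes. Members were named partly by their SCM difference in shControl, and the same shControl libraries enter this interaction with the opposite sign. The directions below are therefore tied to that choice and are no separate support. Among catalytic and lid subunits the averaged response lay below that of shControl for Psmb5 (-0.751), Psmd8 (-0.738), Psmb6 (-0.723), Psmb7 (-0.333) and Psmd11 (-0.193, adjusted p = 0.0437). It also lay below for the ubiquitin receptor Psmd4 (-0.574), the ATPase Psmc3 (-0.473), the assembly factor Psmd9 (-0.367) and the alpha subunits Psma5 (-0.34) and Psma2 (-0.317). It lay above for Psmd5 (0.392), Psmc6 (0.301), Psmd1 (0.291), Psmd14 (0.245) and Psmd12 (0.225). The negative sign held under all 4 scalings for Psmb5, Psmb6 and Psmd8 among these, and the positive sign for all 5 of the latter genes. Scaling by FPKM sums and by total fragments moved this interaction up, so the positive signs could not turn under them. Several of these calls depended on the alternative. Psmd11 kept its call in 12 of 29 alternatives, lost it in 16 and turned sign in 1 (adjusted p up to 0.969, limma), and Psmd12 lost its call in 4. Without the GC and length trend Psmc6 shrank to 0.06 (adjusted p = 0.549, limma), and Psmd1 (0.17) and Psmd5 (0.25) lost their calls.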

How the results depend on the processing

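The scaling between libraries changed most. Under scaling to the same FPKM sum, 4 members were called for SCM in shNdufa5_1, 1 for SCM in shNdufa5_2 and 11 for shNdufa5_2 against shControl in SCM. Of all 11084 tested genes 1212 were higher and 1949 lower, 694 and 231, and 4753 and 184 in these comparisons. The median of the members turned to -0.417 for SCM in shControl, -0.245 for shNdufa5_2 in PCM, 0.206 and 0.105 for shNdufa5_1 and shNdufa5_2 in SCM, 0.381, 0.319 and 0.356 for the interactions of shNdufa5_1, of shNdufa5_2 and of their average, 0.026 and 0.107 for shNdufa5_1 against shNdufa5_2 in PCM and SCM, and -0.007 for SCM in shNdufa5_1. For SCM in shControl it gave Psma2 -0.326, Psma5 -0.148, Psma6 -0.31, Psma7 -0.154, Psmb1 -0.083, Psmb4 -0.069, Psmb7 -0.21, Psmc3 -0.19, Psmd3 -0.407, Psmd7 -0.41, Psmd9 -0.248 and Psmd11 -0.424. For shNdufa5_2 in PCM it gave Psma5 -0.075, Psmb5 -0.051, Psmb7 -0.184, Psmd4 -0.21 and Psmd8 -0.109. For the averaged interaction it gave Psma2 0.26, Psma5 0.257, Psmb7 0.261, Psmc3 0.125, Psmd4 0.022, Psmd9 0.156 and Psmd11 0.384. Scaling by total fragments, an alternative chosen after seeing the data, called 23 members for SCM in shNdufa5_2, turned the medians for SCM in shControl and the interaction of shNdufa5_1 to -0.067 and 0.034 and that for shNdufa5_1 against shNdufa5_2 in SCM to 0.072, and gave Psmd3 -0.055, Psmd7 -0.055 and Psmd11 -0.079 in shControl. Quantile normalization called 11 members for shNdufa5_2 in PCM, turned the same 2 medians to -0.074 and 0.035, also turned those for SCM in shNdufa5_1 (-0.049), shNdufa5_1 in PCM (0.009) and shNdufa5_1 against shNdufa5_2 in SCM (0.074), and gave Psma6 -0.211, Psmb4 -0.043 and Psmd7 -0.103. For SCM in shNdufa5_2 the scaling by total fragments called 894 of all tested genes higher and 2027 lower. For shNdufa5_2 in PCM quantile normalization called 1649 higher and 1940 lower. All these signs are judged against 0, although the median of all tested genes moved too. Under FPKM sums it was -0.499 for SCM in shControl and 0.499 for the averaged interaction. The median of the members minus that median was 0.082 and -0.143. The scalings differ by construction in what they hold equal, and which one fits these cells was not tested.

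Leaving out 1 library gave 24 to 27 called members for SCM in shControl, 11 to 14 in shNdufa5_1 and 9 to 13 in shNdufa5_2, 21 to 25 and 15 to 19 for the hairpins in PCM, 24 to 28 and 16 to 22 in SCM, 18 to 24, 22 to 25 and 23 to 27 for the interactions, and 25 to 27 and 24 to 26 between the hairpins in PCM and SCM. Deviations from the group mean were compared between libraries with the same replicate number. Of 45 same-number pairs 0 had a correlation over 0.1, and 8 of 18 libraries were closest to their own number. With the replicate number as a block 26 members were called for SCM in shControl, 13 in shNdufa5_1 and 12 in shNdufa5_2. The lowest count behind a tested member was 230 fragments in a library.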
